A study of Mus musculus with 9 samples.

Results

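The myosin heavy chains, light chains and light chain kinases of the ventricle were followed through hearts of Mybpc3 mutant mice, with and without base editing. The set holds 7 genes, taken by symbol from the 15779 genes in the deposited tables, and all 7 were found in every table. They are the heavy chains Myh6, Myh7 and Myh7b, the light chains Myl2 and Myl3, and the kinases Mylk3 and Mylk4. The share of Myh7 in the sum of Myh6 and Myh7 was computed for each library as well.

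Polyadenylated RNA was sequenced from adult C57BL/6J mouse heart, 20 to 30 mg of tissue per sample, in 9 libraries. Wild-type mice given saline made up the first group of 3 libraries. The second held 3 libraries from mice homozygous for the Mybpc3 mutation (Mybpc3R946X/R946X), a premature stop in cardiac myosin-binding protein C, also given saline. The third held 3 libraries from Mybpc3R946X/R946X mice given high-dose-exABE8e, called treated hearts here. By the series' design text the editors were adenine base editors, which turn A into G at a guided site, carried by the adeno-associated virus AAV9 and meant for expression in cardiomyocytes. Dose, age, sex, chamber and the promoter of the editor were not given in the sources used here, and nothing says whether libraries were pooled, so p-values measure the spread between these samples. No group of wild-type mice received the editor and no mutant group received an empty virus, so editing and virus cannot be told apart.

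Myosin is the motor of the thick filament. Each molecule joins a pair of heavy chains, which carry the ATPase and the tail, to essential and regulatory light chains wrapped around the lever arm. In the adult mouse ventricle the fast heavy chain alpha-MHC (Myh6) predominates, the slow beta-MHC (Myh7) is the fetal form, and a return of Myh7 is a classical marker of a stressed or hypertrophied rodent heart. Myl2 encodes the ventricular regulatory light chain and Myl3 the ventricular essential light chain. Mylk3 encodes the cardiac kinase that phosphorylates the regulatory light chain, and Mylk4 a related kinase. Myosin-binding protein C, whose gene is mutated here, binds the myosin tail and restrains its heads.

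Myh6 and Myh7 lie head to tail on the minus strand of chromosome 14, and 3756 bases separate them. On GRCm38, with GENCODE M21 annotation, Myh6 runs from 54941921 to 54966927 and Myh7 from 54970684 to 54994626. Myh7b lies on chromosome 2, plus strand, from 155611212 to 155634307. Over 5802 aligned coding bases Myh6 and Myh7 were 91.7% identical, whereas Myh7b was 72.7% identical to Myh6 and 72.6% to Myh7. The stretch below, 60 coding bases of the rod with 24 differences, shows how the pair can be told apart in sequence. Capitals mark the bases that differ; the Myh6 stretch is in exon 25 (chr14:54952277-54952336, minus strand) and the Myh7 stretch in exon 27 (chr14:54980352-54980411, minus strand).
Myh6: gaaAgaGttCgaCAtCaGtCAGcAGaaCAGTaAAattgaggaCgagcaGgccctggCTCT
Myh7: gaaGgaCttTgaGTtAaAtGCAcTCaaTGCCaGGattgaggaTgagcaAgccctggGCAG

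Elsewhere the sequences are alike, and 22.6% of the 50-base windows of the Myh7 transcript, 11.4% of its 100-base windows and 5.51% of its 150-base windows occur unchanged in Myh6. Reads in such windows cannot be assigned by sequence, so the division between these 2 genes carries an uncertainty set by the authors' counting, whose handling of shared reads and whose read length were not given in the sources used here.

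Each heavy chain gene also holds a microRNA in an intron, on its own strand, and these are shown because their seeds are identical in Myh6 and Myh7 and differ at the last base in Myh7b. The sequences are from RefSeq (GRCm38.p6), with the seed, bases 2 to 8, in capitals. The identical pair are miR-208a-3p (chr14:54949072-54949093, minus strand, in Myh6) and miR-208b-3p (chr14:54975710-54975731, minus strand, in Myh7). The seed of miR-499-5p (chr2:155622893-155622913, plus strand, in Myh7b) is UAAGACU, against UAAGACG in the other pair.
miR-208a-3p: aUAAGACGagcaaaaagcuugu
miR-208b-3p: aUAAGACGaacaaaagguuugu
miR-499-5p: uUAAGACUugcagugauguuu
Mature microRNAs carry no polyA tail, so these libraries give no measure of them.

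Values below are the deposited ones, whole numbers on a scale that gives each library nearly the same total (999152 to 999382). Sequencing depth is unknown, and precision rests on 3 libraries per group. Mitochondrial transcripts took 17.0% to 24.1% of a library. Mybpc3 itself ran from 1510 to 2039 in wild type, from 133 to 186 in saline mutants, and from 1024 to 1374 after treatment, and thus separated the 3 groups without overlap. The labelled tissue, heart, matched its markers in that the 8 cardiomyocyte genes checked summed to between 33122 and 38685. Of the 2 ventricular genes, Irx4 stood at 21 to 29 in all libraries. The other, Hey2, was near the floor, at 5, 5 and 4 in wild type, 2, 3 and 4 in saline mutants and 4 in each treated heart. Neither was called in saline mutants against wild type. Of the atrial list Myl7, Sln and Bmp10 were not analysed here. The 4 genes measured (Myl4, Dkk3, Stard10, Sbk2) summed to 24 to 30 in wild type, 23 to 46 in saline mutants and 22 to 31 in treated hearts. Opposite changes partly cancel in these sums, since Myl4 and Dkk3 rose and Stard10 and Sbk2 fell in saline mutants. The 5 skeletal muscle markers measured summed to at most 6, and each of them had a mean below 2. In these bulk samples, fewer cells of a type and less RNA per cell cannot be told apart.

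Groups were compared with limma on log2(value + 1), with the threshold for a call set at an adjusted p under 0.05 (Benjamini-Hochberg, all genes tested together). In saline mutants against wild type, 4 of the 7 genes were called: Myh7 and Myh7b rose, and Mylk3 and Mylk4 fell. Myh6, Myl2 and Myl3 were not called. The authors' deposited list of selected genes for this comparison, made from the same libraries, holds the same 4. The share of all genes on the authors' lists was not computed here, so membership in them is a description only. Of all 13632 genes tested in this comparison 7.7% were called, 4.56% as higher and 3.14% as lower. In treated against saline mutant hearts 0 of the 7 were called, against 0.0147% of 13636 genes tested, while at an unadjusted p under 0.05 limma gave 3 of the 7 (Myh7, Mylk3 and Mylk4) and 8.29% of all genes. The authors' deposited table of selected genes for this comparison lists the same 3. In treated mutant against wild-type hearts 0 of 7 were called, against 0.989% of 13554 genes. This background changed when single libraries were left out. The 134 genes behind it became 1, 3 and 12 without wild type 1, 2 or 3, and 24, 22 and 133 without treated 1, 2 or 3. Each of these fits also had fewer libraries to estimate the spread, and the cause of the fall was not tested. At an unadjusted p under 0.05 limma gave 2 members (Myh7b and Mylk4) and 12.5% of all genes, and the authors' deposited list holds both.

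**Figure D1:**
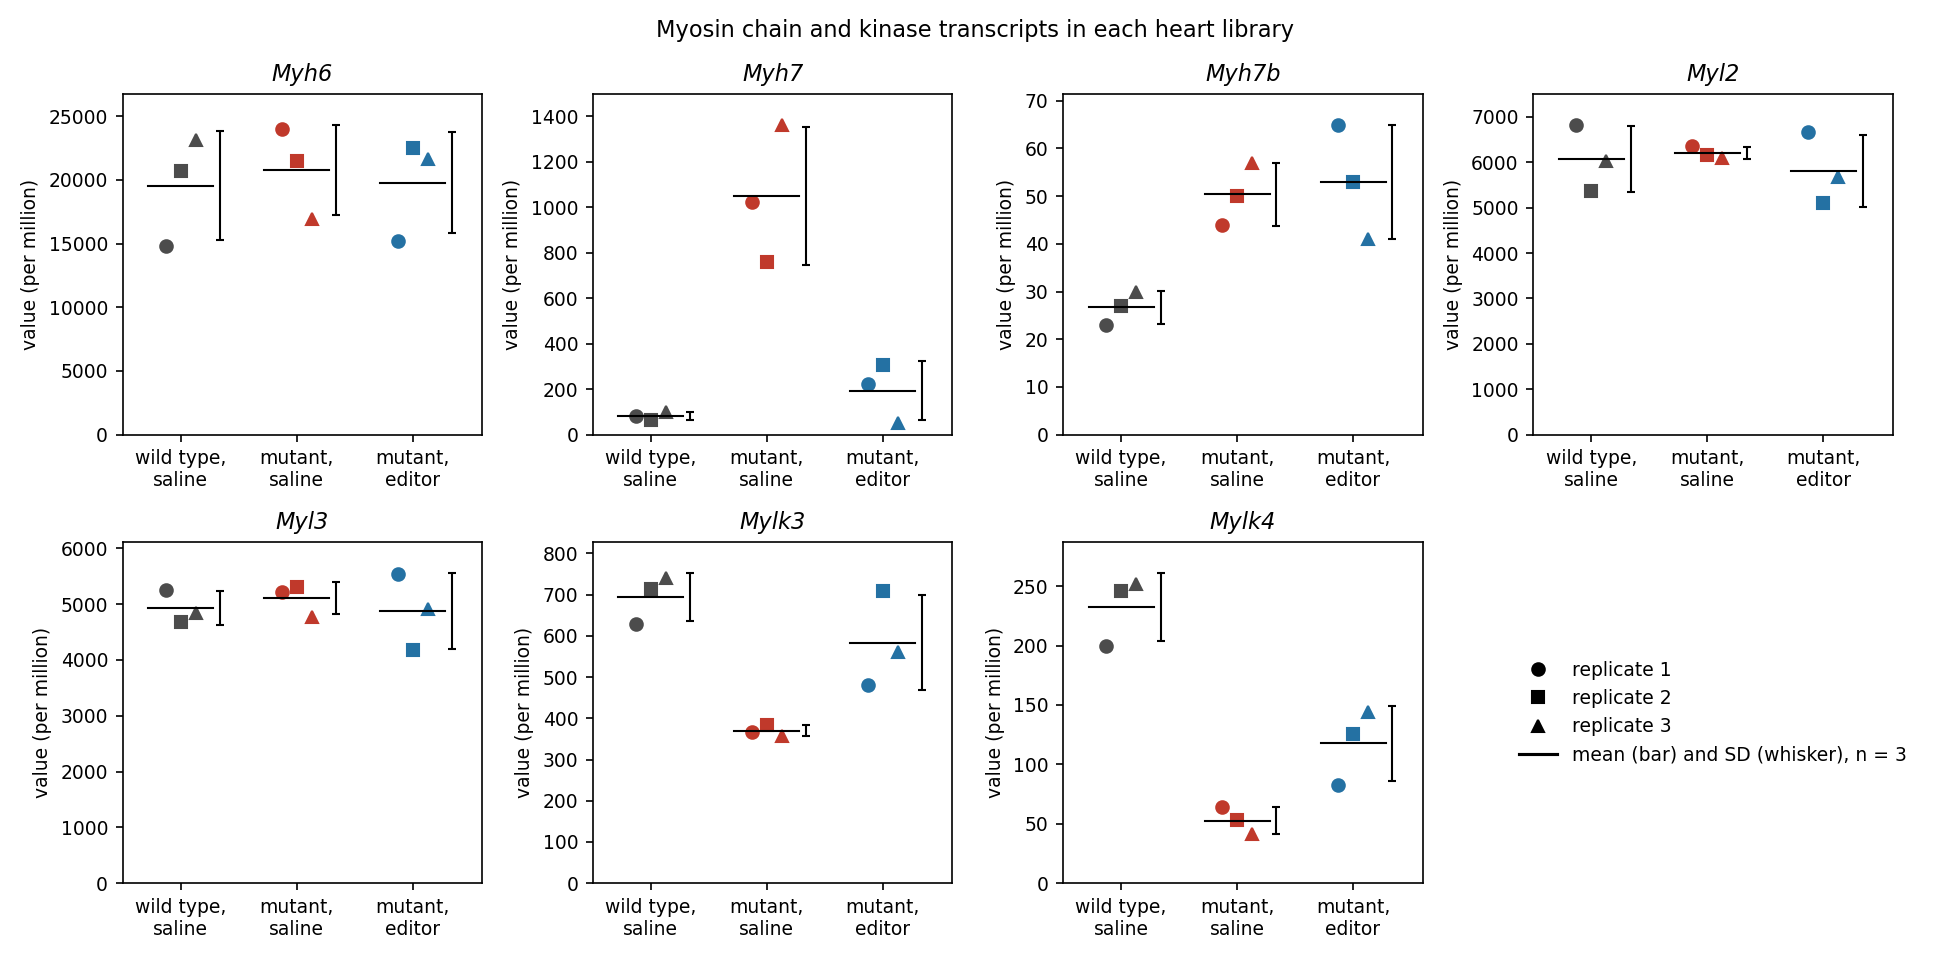
Deposited value (vertical axes, from 0) of each gene in each of the 9 heart libraries; horizontal bars are group means and whiskers SD, n = 3. Myh7 spans 759 to 1364 in the saline mutants against 66 to 100 in wild type, Mylk4 is lowest in the saline mutants (41 to 64), and Myh6, Myl2 and Myl3 overlap in all 3 groups.

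Myh7 showed the largest difference of the 7 genes. Its values were 84, 66 and 100 for the wild-type libraries, 1024, 759 and 1364 for the saline mutants, and 223, 307 and 51 for the treated hearts. Every saline mutant lay far above every other library, whereas the treated group was split, with replicates 1 and 2 above all wild-type hearts and replicate 3 below all of them. Group means were 83.3 ± 17.0, 1049 ± 303 and 194 ± 130 (SD, n = 3 each).

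Between saline mutants and wild type, Myh7 rose 12.3-fold, a log2 difference of 3.62 (SE 0.220) at a limma adjusted p of 0.000113. The groups were higher without overlap for 12.8% of all genes in that comparison, and lower for 8.78%. Between treated and saline mutant hearts the difference was -2.74 (SE 0.574, 95% interval -4.05 to -1.43), and the groups did not overlap, but it was not called (limma adjusted p = 0.214). Groups were lower without overlap for 4.34% of all genes in that comparison. Without treated replicate 3 this difference was smaller, -1.96 (limma adjusted p = 0.0636). Against wild type the treated hearts differed by 0.88 (SE 0.596, interval -0.51 to 2.27, limma adjusted p = 0.598). In the order of means, wild type, treated and saline mutant, the first pair of neighbours thus did not differ beyond their spread. The comparison of treated hearts with wild type rested on treated replicate 3: without it the difference was 1.66 and was called (limma adjusted p = 0.0311). For the same 3 comparisons the authors' deposited table gives 3.56, -2.38 and 1.20.

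Myh6, the main adult heavy chain, was not called in any comparison. Its values were 14823, 20732 and 23109 in wild type, 23965, 21458 and 16937 in saline mutants, then 15229, 22506 and 21627 in treated hearts. Each group had 1 low library, and the 3 groups overlapped throughout. The differences were 0.10 for saline mutant against wild type (95% interval -0.41 to 0.60), -0.08 for treated against saline mutant (-0.58 to 0.42) and 0.02 for treated against wild type (-0.49 to 0.53). Intervals of this width reach log2 differences of 0.60 upward and -0.58 downward. They leave room for a change larger than the spread within a group, whose SD was 17.1% to 21.8% of its mean.

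The low libraries were the same 3 that carried Xist, the RNA of the inactive X chromosome: wild type 1, saline mutant 3 and treated 1, with Xist at 119, 351 and 39 against 0 in the other 6. Myh6 ranged from 14823 to 16937 in these 3 and from 20732 to 23965 in the 6 others, without overlap. Of 3 other long transcripts looked at, 2 were split in the same way, with titin (Ttn) at 2873 to 4198 against 4546 to 5583 and the ryanodine receptor (Ryr2) at 857 to 1024 against 1244 to 1817, while nebulin (Neb) overlapped at 2 to 28 against 4 to 32. The heavy chains Myh7 (84 to 1364 against 51 to 1024) and Myh7b (23 to 65 against 27 to 53) overlapped too. Treated replicate 1 also had Ddx3y, a Y-linked gene, at 38. This gene was at 0 in wild type 1 and saline mutant 3, and at 70 to 97 in the 6 libraries without Xist. Wild type 1 and treated 1 further differed from the rest in how values ran with transcript length. Over 4931 genes the deviation from the gene's mean changed by -0.14 and -0.08 per doubling of length on the log2 scale there, and by -0.01 to 0.08 in the other 7 libraries. The part of sex or of length in the low Myh6 values was not tested. Without the 3 libraries the differences of Myh6 were 0.05, -0.04 and 0.01, and the same 4 genes, Myh7, Myh7b, Mylk3 and Mylk4, were called between saline mutants and wild type.

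**Figure D2:**
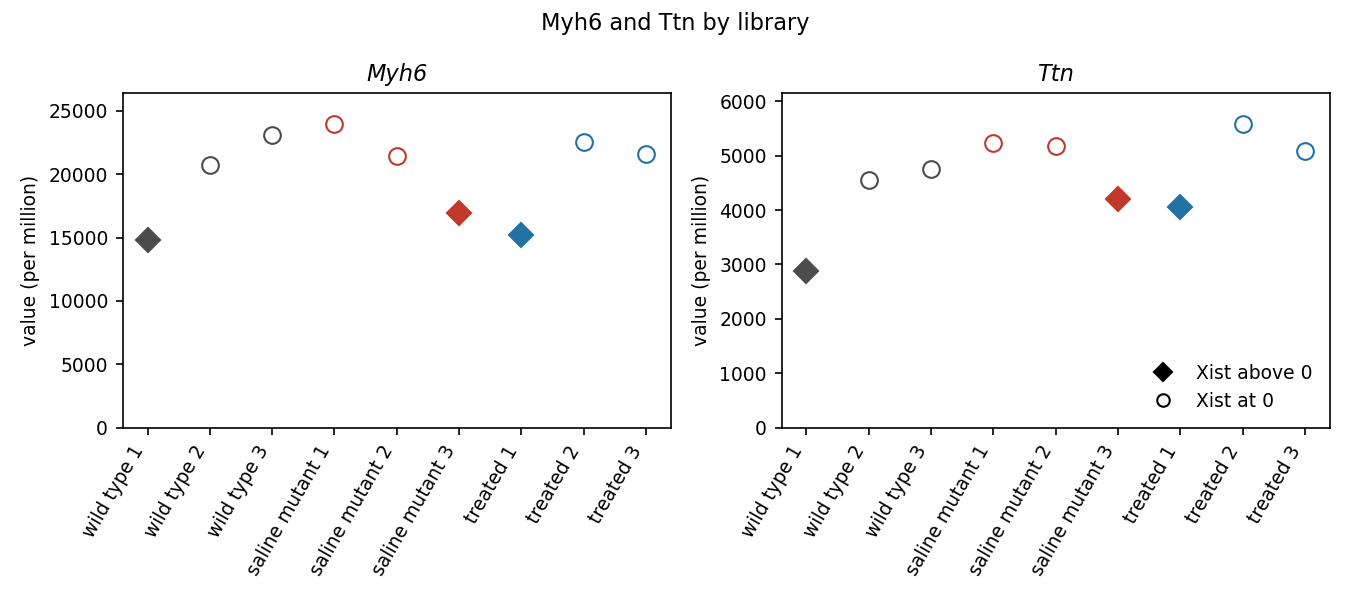
Deposited value (vertical axes, from 0) of Myh6 and Ttn in each of the 9 libraries; filled diamonds are the libraries with Xist above 0 and open circles those with Xist at 0. The 3 diamonds lie between 14823 and 16937 for Myh6 and between 2873 and 4198 for Ttn, below all 6 circles in both panels.

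Myh6 and Myh7 transcripts are of nearly equal length (6113 and 6135 bases), so their values can be set against each other whether or not the authors scaled for length. As a part of the sum of both, Myh7 reached 0.563%, 0.317% and 0.431% in the wild-type libraries, 4.10%, 3.42% and 7.45% under saline in the mutants, and 1.44%, 1.35% and 0.235% after treatment. Myh6 remained the main form of the pair in every library. The mean share was 0.437% ± 0.123 in wild type, then 4.99% ± 2.16 and 1.01% ± 0.671 in saline and treated mutants (SD, n = 3 each). All saline mutants lay above all wild-type and all treated libraries. The exact two-sided permutation p was 0.1 for each of these contrasts (0.3 adjusted over 12 tests), the smallest that 3 against 3 libraries allow. Treated and wild-type shares overlapped (exact permutation p = 0.4, adjusted 0.72).

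The sum of Myh6 and Myh7 was 14907, 20798 and 23209 in wild type, 24989, 22217 and 18301 in saline mutants, then 15452, 22813 and 21678 in treated hearts. These ranges overlapped, with exact permutation p-values of 0.6, 0.6 and 0.8 for the 3 comparisons. The rise of Myh7 in saline mutants was small beside the spread of the sum: the Myh7 means differed by less than the SD of the sum within any group, 3360 to 4271.

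**Figure D3:**
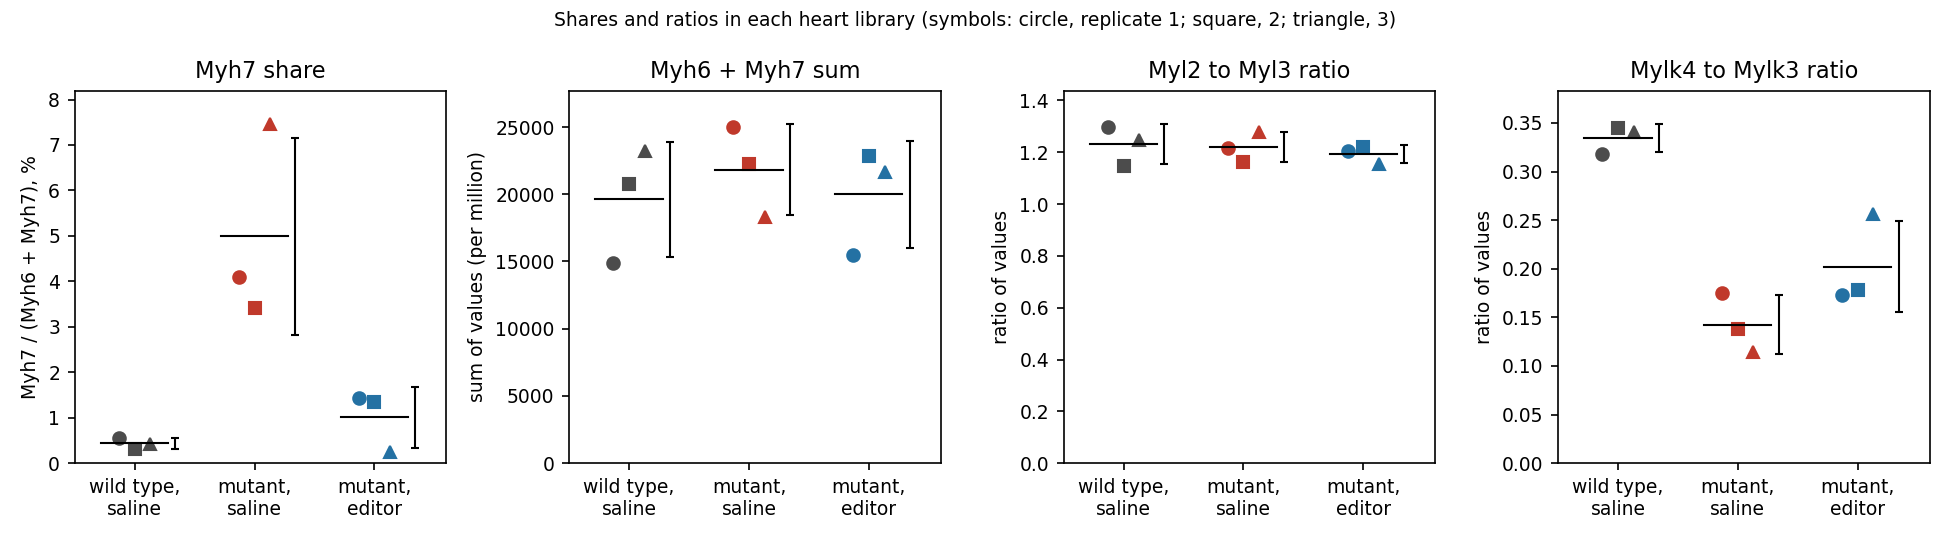
Share of Myh7 in Myh6 plus Myh7 (%), sum of both values, ratio of Myl2 to Myl3 and ratio of Mylk4 to Mylk3 in each library; horizontal bars are group means and whiskers SD, n = 3. The Myh7 share is 3.42% to 7.45% in saline mutants and at most 1.44% elsewhere, and the Mylk4 to Mylk3 ratio is 0.318 to 0.345 in wild type and at most 0.256 elsewhere.

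The promoter of Myh7 is shown because binding of TEAD factors to M-CAT elements there is a known control of this gene. RefSeq gives the gene 2 starts, and the window shown is that of the start shared with GENCODE. The 250 bases before it (RefSeq, GRCm38.p6, chr14:54994627-54994876, minus strand) hold 1 copy of the M-CAT letters CATTCC, searched on both strands and found here as GGAATG, in capitals.
Myh7 promoter: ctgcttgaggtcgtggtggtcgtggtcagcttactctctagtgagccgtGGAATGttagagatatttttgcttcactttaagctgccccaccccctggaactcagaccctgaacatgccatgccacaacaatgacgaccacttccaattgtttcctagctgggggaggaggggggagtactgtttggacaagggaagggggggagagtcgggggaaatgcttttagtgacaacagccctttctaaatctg
The window of the other start, 77 bases downstream, holds 0 copies. Of the other members the Myh6 window holds 1 copy, that of Myl3 2 and 1 of the 2 windows of Mylk3 1, and those of Myh7b, Myl2 and Mylk4 none. These counts hold for RefSeq starts only, some of which lie far from the GENCODE gene start. The distance was 8227 and 7762 bases for Myl2, 21817 for Myl3, and 5304 and 21021 for Mylk3. It was 320 bases for Myh6, 31 for Myh7b and 10 for Mylk4. The same letters occur in 12.6% of 32851 mouse promoter windows of this length, so a match is a description only. Tead1, the TEAD factor on the list of regulators, stood at 155, 225 and 218 in wild type, 290, 260 and 230 in saline mutants, then 240, 283 and 258 after treatment. Its saline mutant values were higher than wild type without overlap, as were those of 12.8% of all genes. The difference of 0.39 was not called (limma adjusted p = 0.206).

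Myh7b, an ancient relative of the cardiac heavy chains, rose in the saline mutants, and its treated values overlapped theirs. It measured 23, 27 and 30 in wild type, 44, 50 and 57 in saline mutants, then 65, 53 and 41 in treated hearts. Wild-type hearts were lowest throughout, and the 2 mutant groups overlapped. The rise in saline mutants was 0.89 (SE 0.141, limma adjusted p = 0.00653), or 1.86-fold.

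Treated against saline mutant hearts, Myh7b differed by 0.06 (95% interval -0.35 to 0.46, limma adjusted p = 0.968). Treated against wild type, it was higher without overlap, as were 9.13% of all genes, by 0.95 (SE 0.181), and just missed the threshold (limma adjusted p = 0.0734). It was called there in the fit of all 9 libraries together (limma adjusted p = 0.024), and the range over all alternatives was 0.024 to 0.319. As a share of the wild-type mean, Myh7 stood at 1259% ± 364 in the saline mutants and 232% ± 157 in the treated hearts, and Myh7b at 189% ± 24.4 and 199% ± 45.0 (SD, n = 3). The treated percentages of the 2 genes overlapped. Whether the treatment differences of the 2 genes differ was not tested.

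The light chains were not called in any comparison. Myl2 (chromosome 5, from 122100951 to 122113472) measured 6831, 5360 and 6027 in wild type, 6354, 6163 and 6104 in saline mutants, then 6667, 5095 and 5678 in treated hearts. Myl3 (chromosome 9, from 110741861 to 110769798) measured 5260, 4671 and 4839, then 5223, 5305 and 4772, then 5534, 4172 and 4916 in the same order. All groups overlapped for both genes.

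The saline mutants differed from wild type by 0.04 for Myl2 (95% interval -0.27 to 0.35) and by 0.05 for Myl3 (-0.23 to 0.33). The treated hearts differed from saline mutants by -0.10 (-0.43 to 0.22) and -0.07 (-0.41 to 0.26), and from wild type by -0.06 (-0.40 to 0.27) and -0.02 (-0.33 to 0.28). The sign of the first pair of values turned under each of the 3 other scalings. Within a library the chains kept a narrow ratio, Myl2 to Myl3 being 1.30, 1.15 and 1.25 in wild type, 1.22, 1.16 and 1.28 in saline mutants, and 1.20, 1.22 and 1.16 after treatment. The exact permutation p-values of this ratio were 0.8, 0.5 and 0.5.

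Mylk3, the cardiac light chain kinase (chromosome 8, minus strand, from 85324303 to 85386345), fell in the saline mutants. It measured 628, 714 and 740 in wild type, 366, 384 and 358 in saline mutants, then 480, 709 and 562 in treated hearts. The saline mutants were tightly grouped and lowest, and the treated hearts spread from between the saline groups up into the wild-type range. Against wild type the saline mutants fell by 0.91 as a log2 difference (SE 0.101, limma adjusted p = 0.0012), to 53.2% ± 1.92 of the wild-type mean (SD, n = 3).

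Treated hearts stood at 84.1% ± 16.7 of it. Against saline mutants they were higher without overlap, as were 5.48% of all genes, by 0.64 (SE 0.145, 95% interval 0.31 to 0.97), which was not called (limma adjusted p = 0.253). Against wild type they differed by -0.26 (-0.62 to 0.09, limma adjusted p = 0.526).

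Mylk4 (chromosome 13, minus strand, from 32700834 to 32783954) fell further. It measured 200, 246 and 252 in wild type, 64, 53 and 41 in saline mutants, then 83, 126 and 144 in treated hearts. The 3 groups were fully separated, with every treated heart above every saline mutant and below every wild-type heart. Saline mutants fell 4.40-fold, by 2.14 as a log2 difference (SE 0.167, limma adjusted p = 0.000233), to 22.6% ± 4.94 of the wild-type mean, and treated hearts stood at 50.6% ± 13.5 of it (SD, n = 3 each).

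The treated hearts differed from saline mutants by 1.13 (SE 0.225, 95% interval 0.62 to 1.64, limma adjusted p = 0.197) and from wild type by -1.01 (SE 0.206, -1.49 to -0.53, limma adjusted p = 0.0889). Neither was called, and groups were lower without overlap for 5.43% of all genes in the latter comparison. The Mylk4 difference from wild type was called under 5 of 18 alternatives, with limma adjusted p from 0.0282 to 0.263 over all of them. The authors' deposited table gives -2.20, 1.18 and -1.01 for Mylk4 and -0.98, 0.69 and -0.27 for Mylk3 in the same 3 comparisons.

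The ratio of Mylk4 to Mylk3 values was followed across groups, since length scaling cancels in such a comparison. It was 0.318, 0.345 and 0.341 in wild type, 0.175, 0.138 and 0.115 in saline mutants, then 0.173, 0.178 and 0.256 in treated hearts. Both mutant groups lay below wild type without overlap (exact permutation p = 0.1, adjusted 0.3, the smallest possible), and they overlapped each other (p = 0.2, adjusted 0.48 by the same exact test). Mylk4 thus fell by more than Mylk3 in every saline mutant library.

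**Figure D4:**
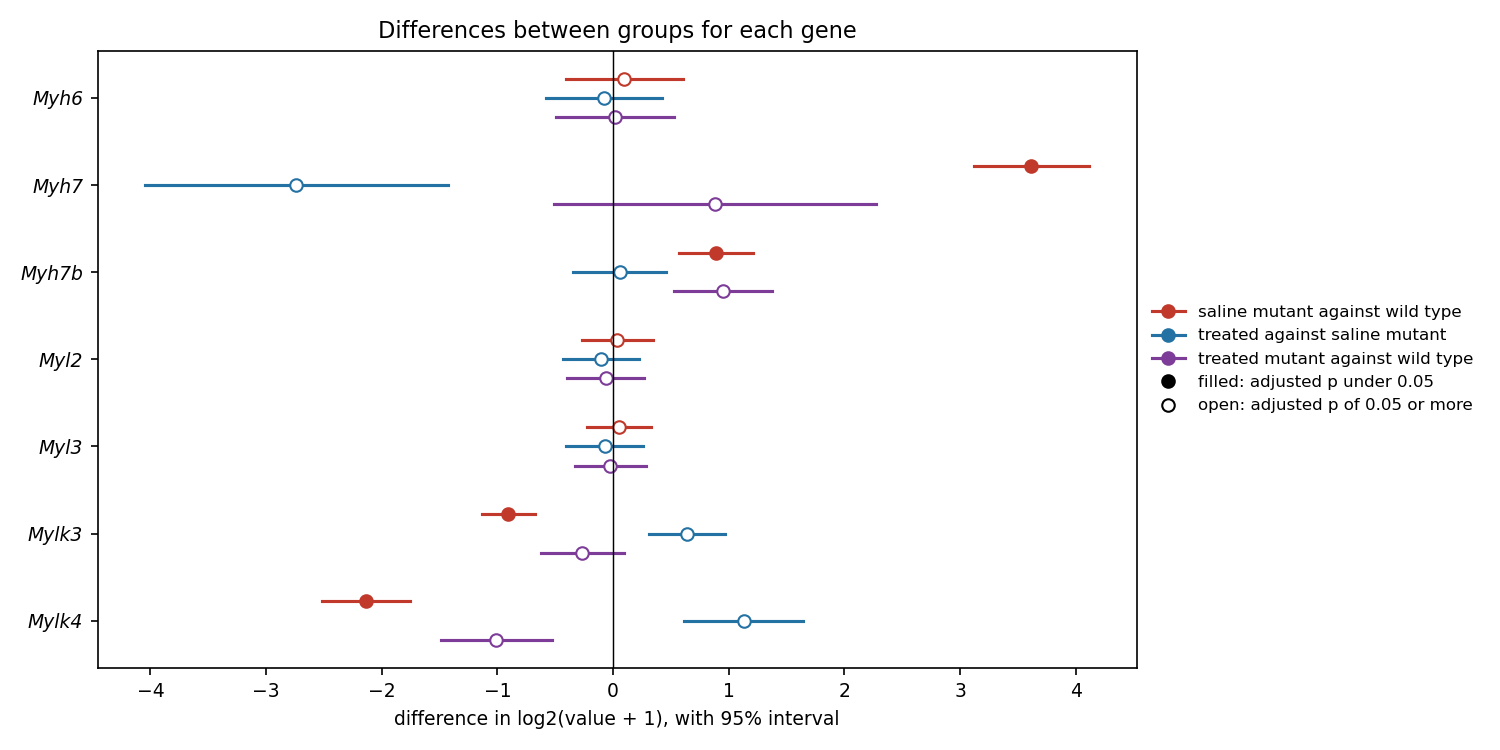
Difference between groups in log2(value + 1) (horizontal axis) for each of the 7 genes, with its 95% interval, n = 3 libraries per group; filled points have a limma adjusted p under 0.05 and open points do not. Only the saline mutant against wild type points of Myh7, Myh7b, Mylk3 and Mylk4 are filled, while Myh6, Myl2 and Myl3 lie near 0 in all 3 comparisons.

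Among marker genes of other cell types, 1 of 4 fibroblast genes was called between saline mutants and wild type (Col1a1, higher). So were 1 of the 3 smooth muscle genes tested (Acta2, lower) and 2 of 5 blood genes (both lower), against 7.7% of all genes. The other blood genes were lower too, with limma adjusted p of 0.0517 to 0.0542. Of the endothelial genes 0 of 4 were called, and of the cardiomyocyte genes 0 of 8. None of these genes was called in the other 2 comparisons. Of the 4 atrial genes tested, 2 were called higher and 2 lower between saline mutants and wild type. Stard10 among them was also called lower in treated mutants against wild type (limma adjusted p = 0.0487), where 0.989% of all genes were called. Summed levels of the other lists follow. Fibroblast genes (Col1a1, Col3a1, Dcn, Pdgfra) summed to 1308 to 1873 in wild type, 2047 to 3245 in saline mutants and 1515 to 2065 in treated hearts. The 4 smooth muscle genes, of which Acta2 had the highest values and Myh11 the next, gave 228 to 370, 138 to 152 and 193 to 218 in the same order, and the 5 blood genes 104 to 313, 69 to 85 and 140 to 158. Cardiomyocyte genes gave 35070 to 35837, 33122 to 37500 and 36451 to 38685, and endothelial genes (4 of 4 measured) 791 to 1137, 735 to 835 and 744 to 889. Opposite changes partly cancel in the cardiomyocyte sums. In saline mutants Actc1 and Actn2 were higher than wild type without overlap, as were 12.8% of all genes. Tnnt2, Tnni3, Pln and Mb were lower without overlap, as were 8.78% of all genes, and Ttn and Ryr2 overlapped. Tnni3 just missed the threshold (-0.50, limma adjusted p = 0.0505). The part of these cell types in the results for the kinases and heavy chains was not tested.

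The wider set of myosin-related genes held 56 genes in 7 lists, of which 49 were measured and 47 tested. In saline mutants against wild type 4 of the 47 were called higher and 3 lower, against 4.56% and 3.14% of all genes. In treated against saline mutants 0 were called, against 0.0147% of all genes. In treated mutants against wild type 1 was called lower, while 0.989% of all genes were called in either direction. The median difference of all genes in the first comparison was 0.07, and list medians lay between -0.03 and 0.26.

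Other sarcomeric heavy chains were nearly silent: Myh4 was at 0 or 1 and Myh8 at 0 or 1 in every library, and Myh1, Myh2, Myh3 and Myh13 were not analysed here. None of the 4 non-muscle and smooth muscle heavy chains was called. Myh9, with the highest deposited values among them, measured 117 to 260 in wild type and 157 to 182 in saline mutants, a difference of -0.01 (limma adjusted p = 1). Myh10, another non-muscle heavy chain, measured 41, 78 and 53 in wild type, 90, 95 and 103 in saline mutants, then 64, 87 and 84 in treated hearts. Its saline mutants were higher without overlap, as were 12.8% of all genes. The difference of 0.78 just missed the threshold (limma adjusted p = 0.0553).

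Of 8 light chains measured outside the ventricular pair, 2 rose and 1 fell in saline mutants. Myl4, the atrial essential light chain, rose by 1.19 (limma adjusted p = 0.0125) but from 1 in every wild-type library to 3, 3 and 5. Values this low are rounded coarsely, and the call was lost without wild type 1 or saline mutant 3, and without the 3 Xist libraries (limma adjusted p = 0.14). The other atrial markers did not move as one, with Dkk3 higher and Stard10 and Sbk2 lower in the saline mutants. Myl12a, a non-muscle regulatory light chain, measured 250, 214 and 215 in wild type and 332, 379 and 356 in saline mutants, a rise of 0.65 (limma adjusted p = 0.00699). Myl1, the fast skeletal essential light chain, fell by 0.95 (limma adjusted p = 0.0117), from 31, 30 and 31 to 12, 15 and 20, and stood at 30, 27 and 23 in treated hearts; its call was lost without wild type 1 or saline mutant 2, and without the variance floor (limma adjusted p = 0.0513).

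Of the other kinases that act on the light chain, Mylk, Dapk3, Rock1 and Rock2 were measured, and none was called in any of the 3 comparisons. Of the 6 phosphatase genes Ppp1cb, the catalytic subunit that acts on the light chain, was not called (difference 0.04, limma adjusted p = 0.921). Ppp1r14c, an inhibitor of this phosphatase class, fell by 0.45 (limma adjusted p = 0.0242), from 236, 224 and 218 to 170, 174 and 152. Ppp1r12a, also on this list, measured 49, 62 and 56 in wild type, 72, 76 and 94 in saline mutants, then 63, 72 and 74 in treated hearts. Its saline mutants were higher without overlap, as were 12.8% of all genes. The difference of 0.52 just missed the threshold (limma adjusted p = 0.0538).

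Of the 6 chaperones that help fold myosin, the heat shock proteins Hsp90aa1 and Hspa8 rose in the saline mutants. Hsp90aa1 measured 98, 109 and 90 in wild type, 237, 234 and 272 in saline mutants, then 390, 193 and 183 in treated hearts, a rise of 1.32 (limma adjusted p = 0.000335). Hspa8, with the highest deposited value of the list, rose by 0.59 (limma adjusted p = 0.0102), from 1202 to 1329 in wild type to 1808 to 2003; this call was lost under 5 of 18 alternatives, among them without saline mutant 2, with all 9 libraries in one fit (limma adjusted p = 0.0591), and with median-of-ratios (0.0941) or upper-quartile scaling (0.0755). The myosin-specific chaperone Unc45b stood at 147, 176 and 168, then 139, 139 and 113, then 190, 172 and 157, and its difference of -0.33 was not called (limma adjusted p = 0.164).

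Of 16 regulators of myosin genes, 1 fell in saline mutants and none rose. Tbx5, a cardiac T-box factor, fell by 0.52 (limma adjusted p = 0.0366), from 20, 22 and 21 to 15, 13 and 15. The ligand of the thyroid hormone receptor Thra switches the heavy chains. Thra stood at 69, 76 and 68 in wild type and 61, 57 and 50 in saline mutants. It was lower without overlap, as were 8.78% of all genes, but was not called (limma adjusted p = 0.121). The calls of Tbx5 and Ppp1r14c were lost when any 1 of the 6 libraries was left out, that of Tbx5 also with all 9 libraries in one fit (limma adjusted p = 0.0897), and those of Hsp90aa1 and Myl12a under none of 18 alternatives. Without the 3 Xist libraries 4 of these genes were called: Hsp90aa1, Hspa8 and Myl12a higher and Myl1 lower.

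Mhrt, an antisense RNA of the Myh7 locus known to oppose cardiac stress, was the gene called between treated mutants and wild type. It is annotated on the plus strand (chromosome 14, from 54968678 to 54974349), and 3666 of its bases lie within Myh7. It measured 7, 9 and 10 in wild type, 8 in each saline mutant library, and 4, 3 and 4 after treatment. The treated hearts fell by 1.05 against wild type (limma adjusted p = 0.0483), and this call was lost under 11 of 17 alternatives, among them when any 1 library was left out and with a pseudocount of 5 (limma adjusted p = 0.0517). Whether counting used strand was not given in the sources used here, so reads of Mhrt and Myh7 cannot be told apart where they overlap.

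**Figure D5:**
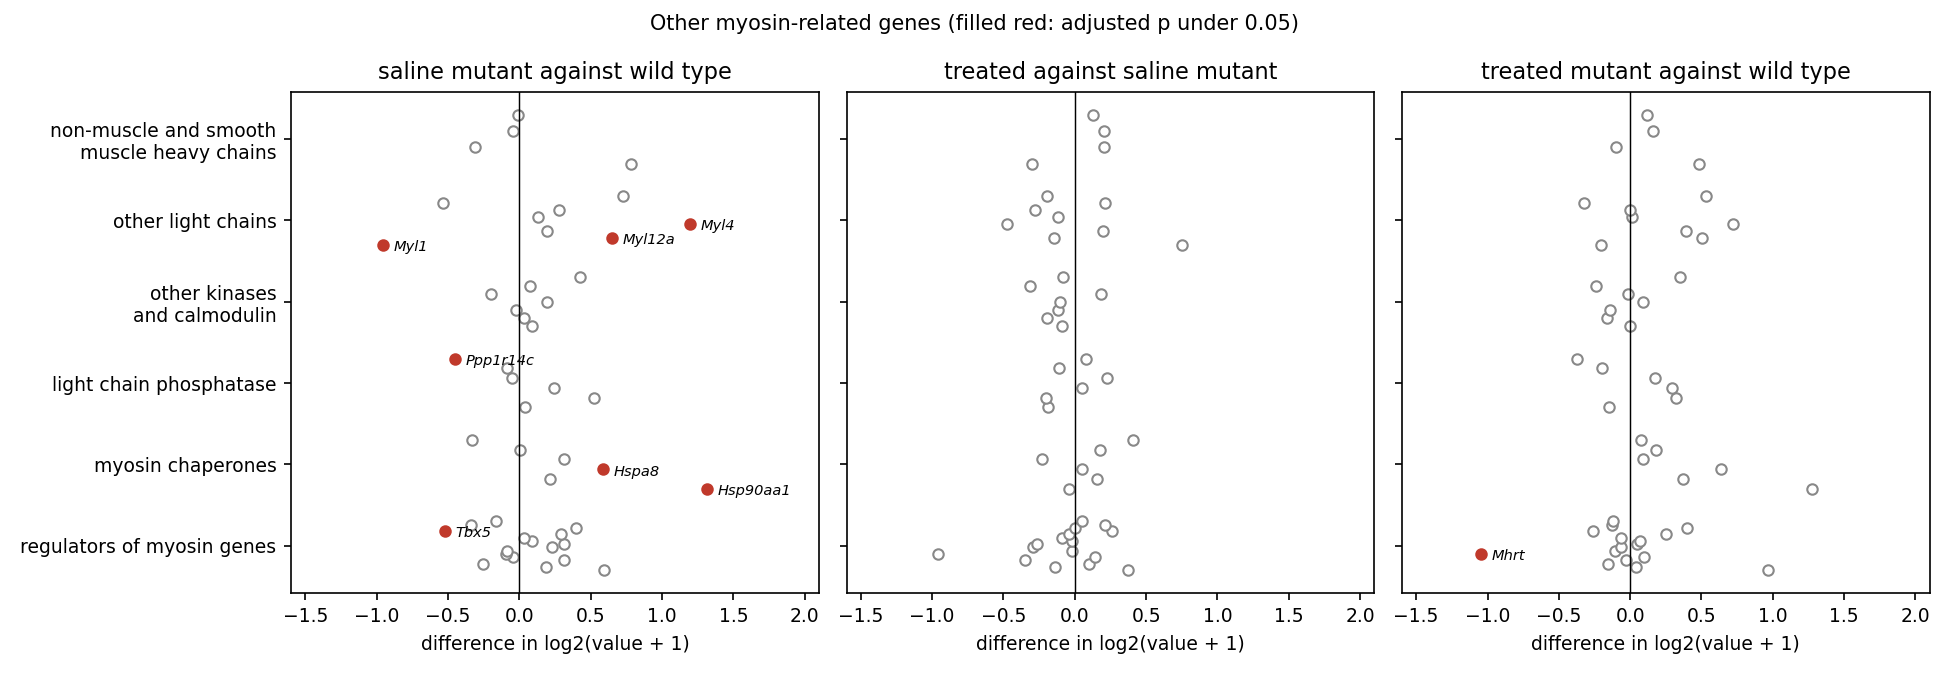
Difference in log2(value + 1) (horizontal axes) of the 47 other myosin-related genes tested, by list and in each of the 3 comparisons; filled red points are named and have a limma adjusted p under 0.05, open points do not. The 7 named genes of the left panel run from Myl1 at -0.95 to Hsp90aa1 at 1.32, none is named in the middle panel, and Mhrt at -1.05 is the 1 named on the right.

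Among the 4981 genes averaging 30 or more over all libraries, those nearest in pattern to each called member were found by the root mean square difference of centred log2(value + 1) over the 9 libraries. The 9 libraries share their 3 groups, so nearness reflects the group means in large part. For Myh7 the nearest were Nppb (0.68), Acta1 (0.68) and Nppa (0.86), which encode a pair of natriuretic peptides and skeletal actin. In treated replicate 3 Myh7 was at 51, below its wild-type values, whereas Nppb was at 78, Acta1 at 841 and Nppa at 155, all above their wild-type maxima of 61, 597 and 61.

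For Myh7b the nearest were Pam (0.11), Cdv3 (0.12) and Popdc3 (0.13). Pam encodes the enzyme that amidates secreted peptides and measured 580, 654 and 648 in wild type, 1029, 1160 and 1193 in saline mutants, then 1225, 1182 and 874 in treated hearts. Like Myh7b, these 3 genes had treated values above every wild-type value, as did 9.13% of all genes. Their choice by pattern largely sets this likeness.

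For Mylk3 the nearest were Art1 (0.11), Fdft1 (0.11) and Kcnip2 (0.11). Kcnip2 encodes the subunit of the transient outward potassium channel and measured 206, 224 and 217, then 120, 119 and 99, then 145, 180 and 174 in the 3 groups. For Mylk4 the nearest were Wnk2 (0.16), Scara5 (0.18) and Lgr6 (0.23). All 3 were lowest in every saline mutant and lower in each treated heart than in the highest wild-type heart, which their choice by pattern largely sets. Scara5, for example, measured 58, 60 and 57, then 15, 10 and 12, then 22, 35 and 33.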

How the data were processed

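Polyadenylated heart RNA was sequenced in 9 libraries, 3 per group. The submitters' processing notes name HISAT2, HTSeq, DESeq2 and mm10, without roles or versions. The deposited value of each gene and library is treated as a score: a whole number on a per-million scale, rounded by the authors, with length scaling not stated. Per the file headers, the authors also deposited a mean signal, a log2 fold change with its standard error, a test statistic (a score) and p-values; the deposited p-value column headed as adjusted holds the statistic's normal p without adjustment, so only fold changes and list membership were taken from it. Values of 1 gene and library never differed between the 3 tables.

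Each pair of groups was fitted with limma 3.58.1 (R 4.3.3) on log2(value + 1) for genes with a mean of at least 1, with a trend, residual variances floored at the rounding variance and the prior degrees of freedom estimated on genes averaging 30 or more; the steps were tested on simulated data. With the added 1, changes of genes with low values come out too small. Shares and ratios were compared by exact two-sided permutation over libraries, adjusted over 12 tests. Members, lists, variance step and the rule for named genes were chosen with earlier results of these data known. The rule names all members, list genes that were called or highest in their list, and the 3 nearest patterns. Mylk, Dapk3, Rock1, Rock2, Myh10, Ppp1r12a, Unc45b, Thra, Ttn, Ryr2, Neb and single cell type markers were named after their values were seen. A gene that the rule names is not reported here. The comparisons share groups and are not independent. Alternatives covered pseudocount, filter, scaling, variance step, samples fitted, the replicate number as a block, and libraries left out. Coordinates are 1-based on GRCm38, the build of mm10.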

Additional observations from a re-analysis of the deposited data

How the results depend on the processing

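In saline mutants against wild type, 4 members were called under all 18 alternatives, and in treated against saline mutants 0 under all 18. In treated mutants against wild type, where 0 were called, 1 was called with median-of-ratios scaling and 1 with upper-quartile scaling, 2 when all genes gave the prior and 2 with all 9 libraries in one fit, and 0 to 2 with 1 library left out. Same-numbered libraries did not deviate together in every pair (correlations -0.417 to 0.621), so the numbers were not taken as pairs; with a replicate block the counts were 4, 0 and 1, and Hspa8, Tbx5, Ppp1r14c and Mhrt were no longer called. The other myosin-related genes called, for which alternatives were chosen after seeing the data, numbered 3 to 6 in saline mutants against wild type with 1 library left out. All genes called there went from 1050 to between 506 and 1029.

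Signs turned for differences that were never called. In saline mutants against wild type Myl2 was -0.034, -0.057 and -0.014 and Myl3 -0.021, -0.045 and -0.0012 with median-of-ratios scaling, with upper-quartile scaling and without mitochondrial transcripts, and the range with 1 library left out was -0.089 to 0.24 for Myh6, -0.048 to 0.13 for Myl2, -168 to 3983 for the sum of Myh6 and Myh7, and -0.053 to 0.023 for the Myl2 to Myl3 ratio. In treated against saline mutants Myh7b was -0.0085 without the 3 Xist libraries, and the range with 1 library left out was -0.10 to 0.23 for Myh7b, -0.22 to 0.10 for Myh6, -0.17 to 0.034 for Myl3, -3622 to 410 for the sum, and -0.054 to 0.0045 for the light chain ratio. In treated mutants against wild type Myh6 was -0.061 with upper-quartile scaling and -0.026 without mitochondrial transcripts, and the sum differed by -131, -850 and -362 under the 3 scalings. With 1 library left out the range there was -0.17 to 0.20 for Myh6, -0.17 to 0.026 for Myl2, -0.12 to 0.085 for Myl3 and -2023 to 2608 for the sum. The cause was not tested. Depth is unknown, so counting error could not be separated from the spread between libraries.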
